A study of Homo sapiens with 10 samples.

Results

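The annexins are described here across 7 ovarian cancer cell lines. The 10 members ANXA1, ANXA2, ANXA3, ANXA5, ANXA6, ANXA7, ANXA8, ANXA9, ANXA10 and ANXA11 were taken by gene name from the deposited transcript annotation, where they had 28 of 99493 transcripts and made up 10 of 57110 genes. None of them was joined with another gene under a shared identifier. RNA of the lines COV362, COV504, IGROV-1, OVKATE, OVMANA, OVTOKO and SK-OV-3 was sequenced on nanopore instruments, which read nucleic acid strands as they pass through protein pores. IGROV-1 was run on the PromethION in 2 libraries and on the MinION, a smaller device, in another 2, while the other 6 lines have a single PromethION library each. The labels name no treatment and no genetic change in any group, and the series served to benchmark software for transcript quantification. Whether the IGROV-1 replicates came from separate cultures is not stated, so p-values measure the spread between these libraries, which may be technical.

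Annexins are calcium-dependent proteins that bind acidic phospholipids on the inner face of membranes through a conserved core of repeats. The N-terminal tail differs between members and carries the binding sites for partners, such as S100 proteins on ANXA1 and ANXA2 and the calcium sensor PDCD6 on ANXA7 and ANXA11. They are known for membrane repair, vesicle traffic and the organisation of the cell cortex, and in epithelial tumours ANXA1 and ANXA2 are among the abundant members.

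A library held 1729782 to 3666224 counts (median 2287873). Levels are given as CPM, the counts of a gene scaled to a common library total. The share of counts from mitochondrial genes lay between 2.82% and 15.2% and was highest in the PromethION libraries of IGROV-1. PAX8, a transcription factor of the Müllerian epithelium, was detected in all 10 libraries at 84.1 CPM or more, and the 6 epithelial markers summed to between 404 and 8834 CPM. EPCAM and CDH1, which define epithelial cells, were at or near 0 in IGROV-1, where KRT8 lay between 5.15 and 11.4 CPM and KRT18 was present at 244 CPM or more. In OVTOKO EPCAM was at 8.67 CPM, CDH1 at 2.31 CPM and KRT19 and CLDN4 at 0.578 CPM each. CDH1 was also low in COV362, at 1.57 CPM, and in SK-OV-3, at 5.06 CPM. The 11 markers of leukocytes, endothelium and fibroblasts summed to between 2.31 and 283 CPM. COL1A1 at 219 CPM and LUM at 52.7 CPM in SK-OV-3 were the highest of them, PTPRC was at 0 in 8 libraries and CD3E in all 10. The part of these marker differences in the annexin levels was not tested.

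The 4 transcripts of ANXA2 are shown first, because the gene gave most of the annexin counts in several lines and its transcripts differ at the 5′ end. ANXA2 (ENSG00000182718) lies on chromosome 15 from 60347134 to 60402883 on the minus strand of GRCh38. The 4 transcripts join different exons to the same exon at chr15:60386028-60386086. ENST00000451270 splices directly from a first exon at chr15:60397943-60398043, and ENST00000332680 from a first exon at chr15:60397871-60397985. ENST00000421017 inserts an exon of 81 nucleotides at chr15:60397258-60397338, and ENST00000396024 one of 105 nucleotides at chr15:60390213-60390317. In the first 3 lines below the coding sequence starts within the shared exon, at position 60386075, and has 1017 nucleotides. In ENST00000332680 it starts in the first exon, at position 60397913, which adds 54 nucleotides or 18 codons. ENST00000396024 also ends 193 nucleotides beyond ENST00000451270. Each line gives 30 bases across the junction in the sense of the transcript, from GENCODE 29, with the 15 bases of the upstream exon in capitals.
ENST00000451270: CGGCGCACGGCCCAGcttccttcaaaatgt
ENST00000421017: ATTGGCCTCAGGAAGcttccttcaaaatgt
ENST00000396024: AGATACTGCTTTGTGcttccttcaaaatgt
ENST00000332680: ACGCTGGGAAGAAGGcttccttcaaaatgt

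**Figure D1:**
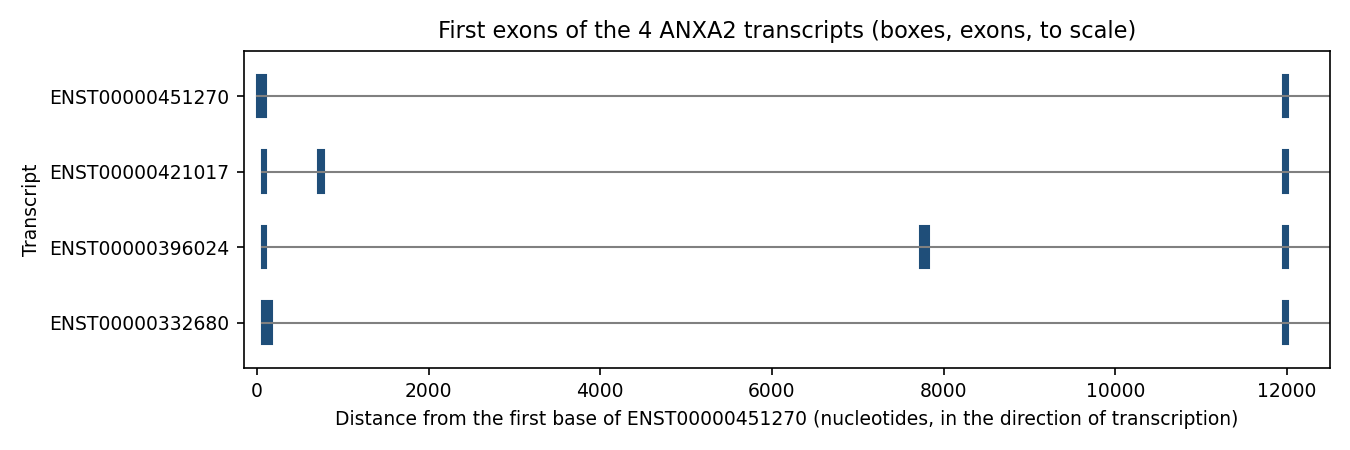
Exons at the 5′ end of the 4 ANXA2 transcripts, drawn to scale against the distance in nucleotides from the first base of ENST00000451270. All 4 transcripts reach the same exon at the right of the plot, and ENST00000421017 and ENST00000396024 each hold an extra exon before it.

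ANXA2 was the most abundant of the 10 members in all 10 libraries and was lowest in IGROV-1. ANXA4, an annexin outside the members, lay above it in OVTOKO (1960 against 1455 CPM) and in IGROV-1 MinION replicate 1 (852 against 676 CPM). The ANXA2 protein forms a complex with S100A10 at the cell surface that binds plasminogen and its activator. Its level was 3100.2 CPM in OVMANA, 5208 in OVKATE, 1455 in OVTOKO, 3344 in SK-OV-3, 1527 in COV362 and 5673 in COV504. In IGROV-1 it was 730.4 and 792 CPM on the PromethION and 676 and 739 CPM on the MinION. All 6 other lines lay above all 4 IGROV-1 libraries, and COV504 was 7.45-fold above the IGROV-1 PromethION mean of 761 ± 43.3 CPM (SD, n = 2). Divided by transcript length, so that genes can be compared, the ANXA2 level was 468 to 3914 CPM per kb and ranked first among the members in every library. In bulk RNA, fewer cells with a transcript and less of it per cell cannot be told apart.

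Each of the 6 lines was compared with IGROV-1 PromethION by edgeR's quasi-likelihood test over all genes, with a call at a Benjamini-Hochberg adjusted p under 0.05. ANXA2 was called higher in 6 of 6 lines. The log2 change was largest in COV504, at 2.82 ± 0.15 (SE; adjusted p = 5.0e-06 by edgeR), and smallest in OVTOKO, at 1.01 ± 0.15 (adjusted p = 0.00143 by edgeR). Changes in OVKATE, OVMANA, SK-OV-3 and COV362 were 2.47, 2.09, 1.91 and 1.05 on the log2 scale. These comparisons share the IGROV-1 libraries, so they are not independent of each other. The lone library of each line is assumed to vary like the IGROV-1 replicates, which leave 2 residual degrees of freedom. The fit treats the IGROV-1 libraries of both instruments as independent of each other.

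Ordered by level, ANXA2 ran from COV504 through OVKATE, SK-OV-3, OVMANA, COV362 and OVTOKO to IGROV-1. Of these 6 steps, 3 were called in the edgeR test, namely OVKATE above SK-OV-3, OVMANA above COV362 and OVTOKO above IGROV-1. COV504 and OVKATE did not differ beyond the spread (log2 difference 0.35 ± 0.18, SE; adjusted p = 0.171 by edgeR), and neither did COV362 and OVTOKO (0.03 ± 0.18; adjusted p = 0.923). Under edgeR's TMM scaling OVMANA lay above SK-OV-3, by 0.18 ± 0.18 (SE, log2), with no call.

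ANXA1 (ENSG00000135046; chromosome 9, 73151757 to 73170393, plus strand) is a ligand of the formyl peptide receptors and binds S100A11. Its level was 326 CPM in OVMANA, 736 in OVKATE, 552 in OVTOKO, 1937 in SK-OV-3, 778 in COV362 and 1012 in COV504. IGROV-1 had 146 and 269.7 CPM on the PromethION and 176 and 289 CPM on the MinION. The other lines all lay above IGROV-1, with the gap smallest for OVMANA, and the IGROV-1 replicates themselves differed widely. ANXA1 was called higher in 5 of 6 lines, with the largest log2 change in SK-OV-3 (2.99 ± 0.33, SE; adjusted p = 2.4e-04 by edgeR). The changes in COV504, COV362, OVKATE and OVTOKO were 2.20, 1.95, 1.52 and 1.48 on the log2 scale. In OVMANA the change of 0.71 ± 0.35 (SE) was not called (adjusted p = 0.147 by edgeR). Without IGROV-1 PromethION replicate 2, the higher of the pair, the OVMANA difference was called (adjusted p = 6.6e-05 by edgeR, with up to 0.591 under other alternatives). The OVKATE and OVTOKO calls did not hold under DESeq2 (adjusted p = 0.0663 and 0.108) nor without MinION replicate 1 (0.0522 and 0.0772 by edgeR), and the OVTOKO call also not without MinION replicate 2 (0.0553). None of the 6 steps in the order of the lines was called for ANXA1, although SK-OV-3 stood at 9.32 times the IGROV-1 mean.

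**Figure D2:**
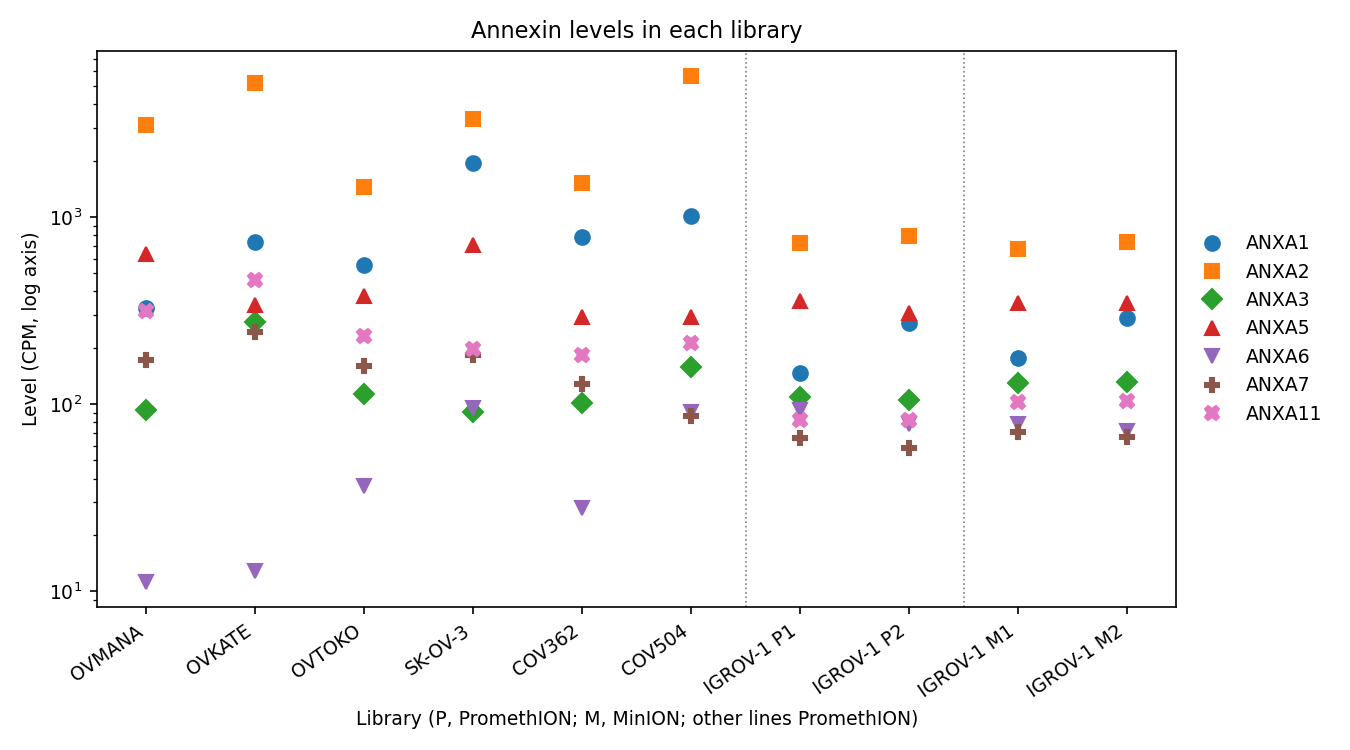
Level in CPM, on a log axis, of the 7 annexin members present in every library, with 1 symbol per gene and library. ANXA2 is the top symbol in each library, and ANXA6 falls to between 11.2 and 36.4 CPM in OVMANA, OVKATE, OVTOKO and COV362.

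ANXA11 and ANXA7 carry long N-terminal tails that bind PDCD6. ANXA11 (ENSG00000122359; chromosome 10, 80150889 to 80205572, minus strand) links RNA granules to lysosomes. Its level was 315 CPM in OVMANA, 463 in OVKATE, 232 in OVTOKO, 196 in SK-OV-3, 183 in COV362 and 211 in COV504. The IGROV-1 libraries gave 82.4 and 82.5 CPM on the PromethION and 103 and 104 CPM on the MinION. IGROV-1 was lowest on both instruments, and ANXA11 was called higher in 6 of 6 lines. The log2 changes ran from 1.02 ± 0.15 (SE) in SK-OV-3 to 2.19 ± 0.15 in OVKATE, with adjusted p of 0.00113 and 1.4e-05 by edgeR. In the order of the lines only the step from COV362 to IGROV-1 was called, so OVKATE, OVMANA, OVTOKO, COV504, SK-OV-3 and COV362 followed each other without a called step.

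ANXA7 (ENSG00000138279; chromosome 10, 73375101 to 73414076, minus strand) was first known as a protein that aggregates secretory granules. Its level was 172 CPM in OVMANA, 244 in OVKATE, 160.1 in OVTOKO, 183 in SK-OV-3, 127 in COV362 and 86.3 in COV504. In IGROV-1 it was 65.8 and 58.4 CPM on the PromethION and 71.2 and 67.0 CPM on the MinION, below every other line. ANXA7 was called higher in 5 of 6 lines, by 1.08 to 1.67 on the log2 scale. The exception was COV504, at 0.40 ± 0.18 (SE; adjusted p = 0.109 by edgeR), and the step from COV362 down to COV504 was called (0.68 ± 0.20, SE; adjusted p = 0.0314 by edgeR).

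Over the 7 lines on the PromethION, ANXA7 and ANXA11 had the highest of the 21 pairwise correlations among the 7 members present in every library (Pearson r = 0.86, Spearman rho = 0.71). The lowest was that of ANXA6 and ANXA11 (r = -0.73, rho = -0.57), and the median r was 0.28. These values describe 7 points, each of which takes both genes from the same library and depth.

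Upstream sequence is shown for ANXA2 as the most abundant member and for ANXA7 and ANXA11 as the pair that moved together most closely, a choice made after their values were seen. Each window has 193 bases and comes from the RefSeq promoter table on GRCh38.p14, on the minus strand. It starts 250 bases before the RefSeq start, and the 57 bases nearest to the start were left out, because in ANXA2 they belong to an annotated exon. For ANXA11, which has several RefSeq starts, the start nearest to the GENCODE one was used. Capitals mark matches, on either strand, to the TATA box TATAAA, the CCAAT box, the GC box GGGCGG, the E-box CACGTG or the AP-1 motif TGAGTCA.
ANXA2, chr15:60398044-60398236: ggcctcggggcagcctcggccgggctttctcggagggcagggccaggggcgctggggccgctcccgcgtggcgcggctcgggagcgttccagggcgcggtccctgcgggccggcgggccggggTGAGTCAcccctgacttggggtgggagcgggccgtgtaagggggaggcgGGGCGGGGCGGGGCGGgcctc
ANXA7, chr10:73414116-73414308: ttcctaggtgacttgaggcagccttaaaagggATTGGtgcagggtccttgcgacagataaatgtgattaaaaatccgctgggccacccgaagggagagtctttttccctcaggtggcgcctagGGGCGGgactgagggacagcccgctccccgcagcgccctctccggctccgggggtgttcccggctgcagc
ANXA11, chr10:80205595-80205787: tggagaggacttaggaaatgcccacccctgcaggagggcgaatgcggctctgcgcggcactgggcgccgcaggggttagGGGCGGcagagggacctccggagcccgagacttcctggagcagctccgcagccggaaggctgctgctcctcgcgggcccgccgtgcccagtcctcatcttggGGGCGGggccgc

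All 3 windows held GGGCGG, which was found in 33.6% of 35116 RefSeq windows cut in the same way. ANXA2 had 3 matches, of which neighbours share 1 base, ANXA11 had 2 and ANXA7 had 1. The TGAGTCA match, 127 bases before the RefSeq start used for ANXA2, was found in 3.10% of all windows and in neither of the other 2. ENST00000451270, the main ANXA2 transcript, starts 57 bases upstream of that RefSeq start. CCAAT stood on the opposite strand of the ANXA7 window and was found in 26.3% of all windows. The TATA box letters, at 7.46% of all windows, and the E-box letters, at 4.22%, were in none of the 3 windows. The GC content was 81.3% for ANXA2, 72.0% for ANXA11 and 61.7% for ANXA7, against a median of 57.0% over all windows. A match of letters does not show that a factor binds there.

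ANXA6 was lower than in IGROV-1 in most lines. ANXA6 (ENSG00000197043; chromosome 5, 151100712 to 151157882, minus strand) has a longer core than the other annexins and is known from cholesterol traffic and membrane repair. Its level was 11.2 CPM in OVMANA, 12.9 in OVKATE, 36.4 in OVTOKO, 95.7 in SK-OV-3, 27.8 in COV362 and 90.8 in COV504. IGROV-1 had 92.7 and 78.6 CPM on the PromethION and 78.3 and 72.0 CPM on the MinION. SK-OV-3 and COV504 lay near IGROV-1, and the other 4 lines lay below all its libraries. ANXA6 was called lower in 4 of 6 lines. It fell by 3.03 on the log2 scale in OVKATE, by 2.87 in OVMANA, by 1.58 in COV362 and by 1.15 in OVTOKO, with SE between 0.22 and 0.28. The adjusted p by edgeR was 5.1e-05, 1.3e-04, 8.6e-04 and 0.00531 in that order. In SK-OV-3 the change was -0.07 ± 0.19 (SE) and in COV504 0.01 ± 0.19, and both changed sign when 1 IGROV-1 library was left out. The OVTOKO call was lost under DESeq2. Between neighbours in the order, the steps from IGROV-1 to OVTOKO and from COV362 to OVKATE were called.

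ANXA5 (ENSG00000164111; chromosome 4, 121667955 to 121697113, minus strand) binds phosphatidylserine and is used as a probe for dying cells. Its level was 632 CPM in OVMANA, 339.8 in OVKATE, 377 in OVTOKO, 704 in SK-OV-3, 291 in COV362 and 294 in COV504. The IGROV-1 libraries gave 356 and 306 CPM on the PromethION and 345 and 347 CPM on the MinION. OVMANA and SK-OV-3 stood apart from the remaining lines, which overlapped IGROV-1 or lay close to it. Both were called higher, with log2 changes of 0.99 ± 0.16 (SE; adjusted p = 0.00170 by edgeR) in OVMANA and 0.86 ± 0.16 (adjusted p = 0.00290) in SK-OV-3. The step down from OVMANA to OVTOKO was the one called step in the order.

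ANXA3 (ENSG00000138772; chromosome 4, 78551519 to 78610451, plus strand) is abundant in neutrophils and was highest in OVKATE. Its level was 93.0 CPM in OVMANA, 273 in OVKATE, 114 in OVTOKO, 91.2 in SK-OV-3, 102 in COV362 and 158 in COV504. In IGROV-1 it was 108 and 105 CPM on the PromethION and 130.1 and 132 CPM on the MinION. OVKATE was highest and COV504 next, while the other 4 lines without replicates lay between 91.2 and 114 CPM. OVKATE was called higher (log2 change 1.05 ± 0.15, SE; adjusted p = 6.5e-04 by edgeR). COV504 was called at 0.49 ± 0.15 (adjusted p = 0.0327 by edgeR). That call did not hold under DESeq2, without the filter on low counts or without either PromethION library or MinION replicate 1, and over all alternatives the adjusted p ran from 0.0184 to 0.419. The step from OVKATE to COV504 was the one called in the order.

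ANXA8, ANXA9 and ANXA10 were at or near the limit of detection, where a count of 0 allows up to 3 counts, or 0.643 CPM over both IGROV-1 PromethION libraries. ANXA9 (ENSG00000143412; chromosome 1, 150982017 to 150995634, plus strand) is an atypical member whose core has lost calcium binding. It had 54 counts in OVKATE, 6 in SK-OV-3, 5 in OVMANA, 2 in COV504, 1 in COV362 and 0 in OVTOKO and all 4 IGROV-1 libraries. OVKATE, at 26.7 CPM, was 41.6-fold above the IGROV-1 PromethION limit of 0.643 CPM, and SK-OV-3 and OVMANA were 4.73-fold and 4.16-fold above it. The counting error of OVKATE, SK-OV-3 and OVMANA themselves is left out of these ratios, so the ratios are not lower bounds. All 3 lines were called, but ANXA9 passed the filter on low counts only through OVKATE, so the OVKATE call is no independent support. The calls in SK-OV-3 and OVMANA rest on 6 and 5 counts. They were lost under DESeq2, without the filter on low counts and without either MinION library. ANXA8 (ENSG00000265190; chromosome 10, 47460162 to 47484158, minus strand) had 2 counts in SK-OV-3, 2 in COV504, 1 in OVTOKO and 0 elsewhere. The near-identical copy ANXA8L1 is joined with another gene in the annotation and reached 1.52 CPM, so reads of this pair could be split. ANXA10 (ENSG00000109511; chromosome 4, 168092515 to 168187690, plus strand), a marker of gastric epithelium, had 1 count, in SK-OV-3. Neither ANXA8 nor ANXA10 passed the filter on low counts.

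Of the 10 members, 8 passed that filter, and ANXA9 did so through OVKATE, where it was high, so it is left out of the following counts. Of the other 7 members, 5 were called in OVMANA, 4 higher and 1 lower, where 35.4% of all 13030 genes tested were called, 18.9% higher and 16.5% lower. In OVKATE 6 were called, 5 of them higher, against 49.2% of all genes, 26.8% higher and 22.4% lower. In OVTOKO 5 were called, 4 of them higher, against 34.1% (18.2% higher, 15.9% lower). In SK-OV-3 5 were called, all of them higher, against 41.8% (22.0% higher, 19.8% lower). In COV362 5 were called, 4 of them higher, against 42.5% (23.7% higher, 18.8% lower). In COV504 4 were called, all of them higher, against 43.5% (24.0% higher, 19.6% lower). DESeq2 called 3 of the 7 in OVTOKO and COV504, against 6.36% and 8.55% of 20740 genes, those of low counts included. It called 5 of the 7 in OVMANA, OVKATE, SK-OV-3 and COV362, against 6.96%, 10.2%, 8.09% and 7.63% of these genes. The median log2 change of the 7 members lay between 0.49 in COV504 and 1.52 in OVKATE, and that of all genes lay near 0.

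**Figure D3:**
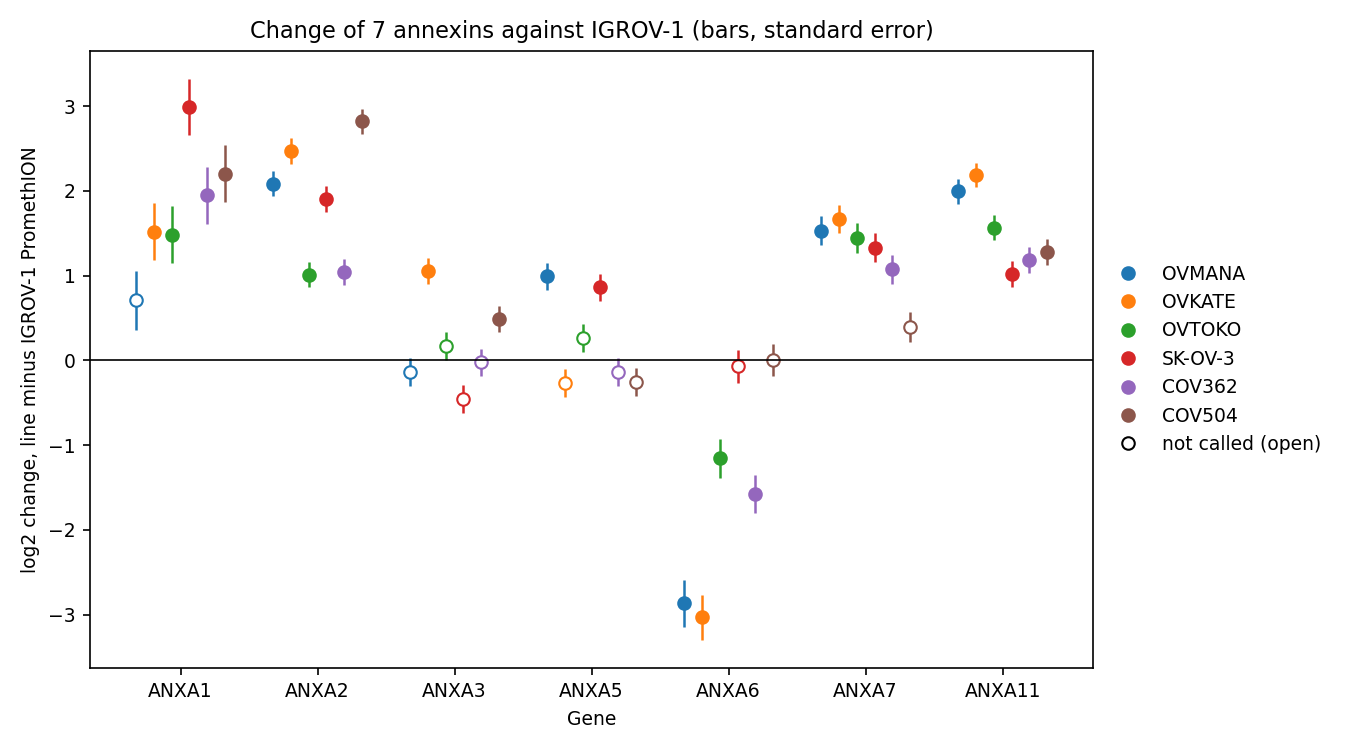
log2 change of 7 annexins in each of 6 lines against IGROV-1 PromethION, with bars for the standard error, filled points for calls and open points for no call. ANXA2 and ANXA11 lie above 0 and are called in all 6 lines, and ANXA6 lies between -3.03 and -1.15 in the 4 lines where it is called.

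Plain CPM and TMM scaling differed by -0.08 to 0.30 on the log2 scale between a line and IGROV-1, with the largest shift in OVKATE. Over the 7 members present in every library, 42 steps between neighbouring lines were tested and 9 were called. No share of all genes was computed for such steps, which join each gene's own neighbours in level and include IGROV-1. In 8 steps, none of them called, the TMM-scaled difference had the opposite sign to the CPM order. Among all 15 pairs of the 6 lines without replicates, 58 of 105 differences of these 7 members were called (55.2%), where 33.1% of the differences of all genes were called. DESeq2 called 21 of these 105 differences, against 3.97% of the differences of all genes, those of low counts included. ANXA6 was called in 12 of the 15 pairs, ANXA2 in 11, and ANXA1 in 5.

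The members together took between 0.158% and 0.753% of a library's counts. Their summed level was 4652 CPM in OVMANA, 7304 in OVKATE, 2926 in OVTOKO, 6556 in SK-OV-3, 3037 in COV362 and 7526 in COV504. In IGROV-1 the sums were 1582 and 1692 CPM on the PromethION and 1579.6 and 1749.7 CPM on the MinION. Every other line had a sum above all 4 IGROV-1 libraries, and ANXA2 made up 42.2% to 75.4% of the sum. Outside mitochondrial genes the IGROV-1 PromethION sums were 1819 and 1994 CPM and those of the other lines 3063 to 7866 CPM.

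Between the instruments no annexin of IGROV-1 was called. By edgeR 0 of 7 tested members were called, against 0.817% of 10041 genes, 0 had an unadjusted p under 0.05, and DESeq2 also called 0, against 0.37% of 16485 genes. The smallest p was that of ANXA11, which was higher on the MinION by 0.29 ± 0.13 (SE, log2; unadjusted p = 0.0523, adjusted p = 0.308 by edgeR). ANXA3 was higher there by 0.26 ± 0.12 (adjusted p = 0.345 by edgeR). ANXA3, ANXA7 and ANXA11 were higher in both MinION libraries than in both PromethION libraries and ANXA6 was lower. That makes 4 of 7 members without overlap, against 47.7% of all genes tested. With the replicate number as a block, ANXA3 and ANXA11 were called (adjusted p = 0.0363 and 0.0292 by edgeR). The share of all genes called with that block is not given here, and the 0.817% is without it.

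In every library most ANXA2 counts were assigned to a single transcript. These are estimated counts, and the 4 transcripts differ mainly upstream of their shared exon. A read that stops short of that part does not tell them apart, and how such reads were split is not known here. ENST00000451270 took 81.5% of ANXA2 counts in OVMANA (95% Wilson interval 80.5% to 82.5%), 87.7% in OVKATE, 85.5% in OVTOKO, 88.6% in SK-OV-3, 83.9% in COV362 and 83.0% in COV504. In IGROV-1 it took 84.9% and 81.9% on the PromethION and 83.8% and 86.4% on the MinION. ENST00000421017, with the inserted exon of 81 nucleotides, ranged from 6.12% in COV362 to 12.2% in OVMANA over the 6 lines without replicates. In IGROV-1 it took 6.38% and 5.89% on the PromethION and 10.7% and 7.06% on the MinION, a spread over much of that range. ENST00000396024, with the inserted exon of 105 nucleotides, took 5.35% in OVMANA, 5.20% in OVKATE, 4.83% in OVTOKO, 4.42% in SK-OV-3, 9.20% in COV362 and 6.42% in COV504. ENST00000332680, with the longer coding sequence, stayed at or below 2.35%.

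Transcript usage, the share of a transcript within its gene, could be tested for ANXA1, ANXA2 and ANXA11. Against IGROV-1, 0 of 3 genes were called in any of the 6 lines by edgeR's usage test. The shares of all genes called were 2.75% in OVMANA, 4.97% in OVKATE, 1.35% in OVTOKO, 2.07% in SK-OV-3, 2.98% in COV362 and 2.56% in COV504. The unadjusted p was under 0.05 for ANXA2 in OVMANA, OVKATE, OVTOKO and SK-OV-3 and for ANXA11 in COV362. DESeq2 has no usage test and was not run on it.

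Between the instruments 1 of the 3 genes was called, ANXA2 (adjusted p = 0.0168 by edgeR), against 5.98% of 2979 genes. ENST00000396024 took 8.21% and 11.2% of ANXA2 counts in the PromethION libraries of IGROV-1 and 3.18% and 4.86% in its MinION libraries. Its log2 change within the gene was -0.89 from PromethION to MinION. ENST00000332680 took 0.520% and 0.984% on the PromethION and 2.35% and 1.68% on the MinION, a change of 0.97. For both transcripts the instruments did not overlap, which is common with 2 libraries on each side. In gene level 47.7% of all genes tested did not overlap, and no such share was computed for transcripts. The ANXA2 usage call did not hold when either PromethION library was left out or when MinION replicate 1 was. With the replicate number as a block it held (adjusted p = 6.9e-04 by edgeR), while the 5.98% of genes is without that block. The shares rest on estimated counts, and the part of reads that stop short of the 5′ exons was not tested.

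**Figure D4:**
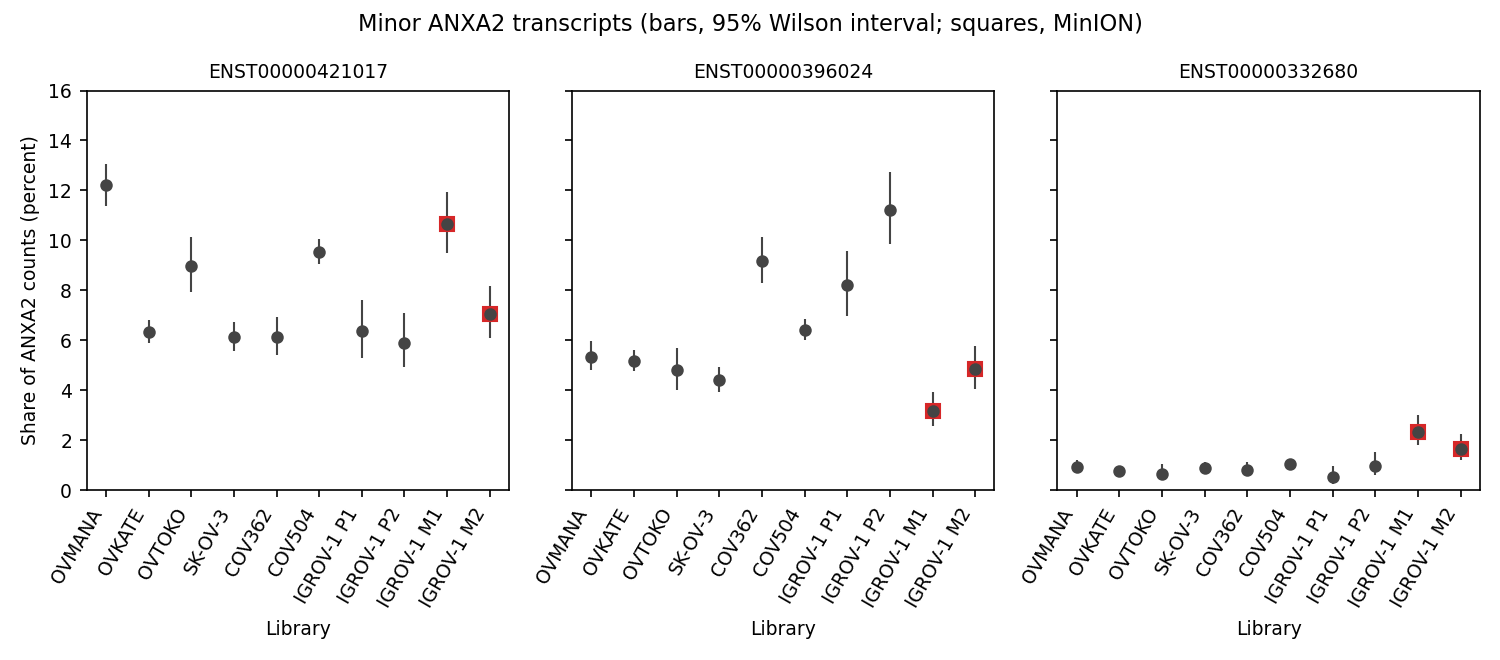
Share of ANXA2 counts, in percent, for the 3 minor transcripts in each of 10 libraries, with 95% Wilson intervals that cover counting error only and squares for the MinION. ENST00000396024 lies at 8.21% and 11.2% in the PromethION libraries of IGROV-1 and at 3.18% and 4.86% in its MinION libraries.

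Other members were carried mostly by a single transcript. ENST00000257497 of ANXA1 took 91.7% to 97.0% of its counts, ENST00000264908 of ANXA3 95.7% to 99.9%, and ENST00000296511 of ANXA5 99.8% or more. In the 8 libraries with over 50 counts of ANXA6, ENST00000354546 took 96.8% to 99.7%. ANXA11 was split between ENST00000422982, with 67.2% to 84.8%, and ENST00000372231, with 11.2% in COV362 to 30.7% in OVTOKO. The latter has a longer last exon, and its 6720 nucleotides compare with 2534 for ENST00000422982, with the same coding length of 1515 nucleotides. The IGROV-1 PromethION replicates gave 26.8% and 17.3% for ENST00000372231, a spread as wide as most differences between lines.

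Among the binding partners, S100A10, the light chain of the ANXA2 complex, was also lowest in IGROV-1. Its level was 978 CPM in OVMANA, 4533 in OVKATE, 1390.3 in OVTOKO, 1758 in SK-OV-3, 3054 in COV362 and 2630.3 in COV504. IGROV-1 had 937 and 877 CPM on the PromethION and 817 and 790.0 CPM on the MinION. S100A10 was called higher in 5 of 6 lines, in OVTOKO not without IGROV-1 PromethION replicate 2 (adjusted p = 0.0728 by edgeR). OVMANA was the exception (log2 change 0.17 ± 0.16, SE; adjusted p = 0.442 by edgeR), while its ANXA2 change was 2.09. Over the 7 lines ANXA2 and S100A10 had r = 0.58 and rho = 0.64, given as a description.

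**Figure D5:**
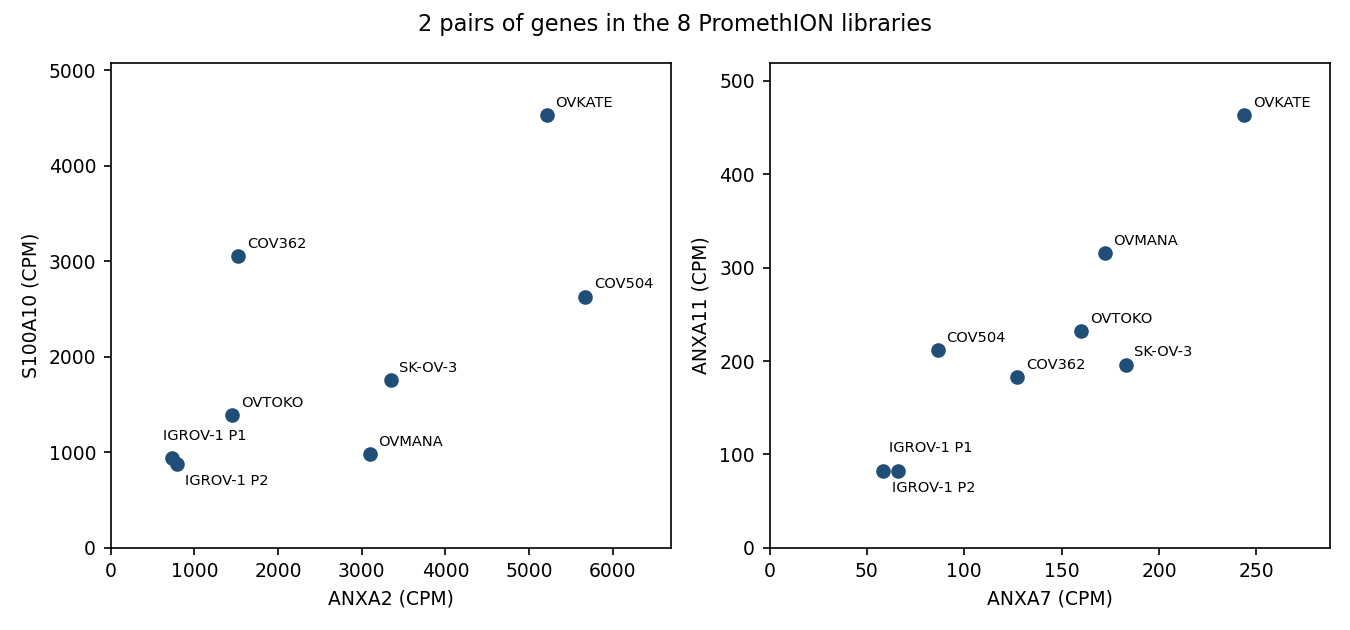
Levels in CPM of ANXA2 against S100A10 (left) and of ANXA7 against ANXA11 (right), with 1 point for each of the 8 PromethION libraries. OVMANA combines 3100.2 CPM of ANXA2 with 978 CPM of S100A10, and OVKATE is the highest point for both ANXA7 and ANXA11.

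S100A11, which binds ANXA1, was called higher in 5 of 6 lines, with levels of 1596 to 2356 CPM in those 5 and 1301 CPM in COV504. IGROV-1 had 807 and 1027 CPM on the PromethION and 1053 and 1288 CPM on the MinION. COV504 was the exception (log2 change 0.43 ± 0.19, SE; adjusted p = 0.101 by edgeR). Without MinION replicate 1 the S100A11 calls in SK-OV-3, OVTOKO and COV362 were lost (adjusted p = 0.0662, 0.0561 and 0.0501 by edgeR), and the SK-OV-3 call also without PromethION replicate 1 (0.102). The receptors of ANXA1 were at or near 0. FPR2 and FPR3 had no count in any library and FPR1 had 1 count, in OVMANA. PDCD6, the sensor bound by ANXA7 and ANXA11, was between 104 and 274 CPM in all libraries and was called higher in OVKATE alone (0.88 ± 0.22, SE; adjusted p = 0.00996 by edgeR), a call lost under DESeq2 (adjusted p = 0.0780). ANXA11 and PDCD6 had r = 0.64 and rho = 0.39 over the 7 lines, and ANXA7 and PDCD6 had r = 0.42 and rho = 0.29.

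The list of ligands, receptors and membrane-repair partners held 25 genes that were not joined with others, of which 19 passed the filter. OVKATE had 14 of 19 called (10 higher, 4 lower), against 49.2% of all genes. SK-OV-3 had 12 (9 higher, 3 lower), against 41.8%. COV362 followed with 11 (8 higher, 3 lower) against 42.5%, and OVTOKO with 9 (8 higher, 1 lower) against 34.1%. COV504 had 8 (6 higher, 2 lower) against 43.5%, and OVMANA had 7 (6 higher, 1 lower) against 35.4%. In OVMANA and COV504 the counts lay near the share of all genes. The counts include PLAT as higher in OVKATE, OVTOKO, SK-OV-3 and COV504 and PLA2G4A as higher in COV362. Both genes passed the filter only through lines where they were high, so those calls are no support. The median log2 change of the list lay between 0.18 and 0.88. S100A6, another small calcium-binding partner, was called higher in 6 of 6 lines by 1.95 to 4.36 on the log2 scale. CAPNS1, the small subunit of calpains, was also called higher in all 6. PLAT, the plasminogen activator that binds ANXA2, had no count in the IGROV-1 PromethION libraries. In SK-OV-3 it was at 15.2 CPM, 23.6-fold above the IGROV-1 PromethION limit of 0.643 CPM, with its own counting error left out. Between the instruments 0 of 17 tested partners were called by edgeR, against 0.817% of all genes.

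ANXA4, an annexin outside the 10 members that is known as a marker of clear cell ovarian carcinoma, had a different order. Its level was 798 CPM in OVMANA, 79.6 in OVKATE, 1960.4 in OVTOKO, 494 in SK-OV-3, 125 in COV362 and 176 in COV504. The IGROV-1 libraries gave 728 and 586 CPM on the PromethION and 852 and 687 CPM on the MinION, in the upper part of the range. ANXA4 was called higher in OVTOKO (log2 change 1.65 ± 0.20, SE; adjusted p = 5.2e-04 by edgeR). It was called lower in OVKATE (fell by 3.35), COV362 (fell by 2.35), COV504 (fell by 1.98) and SK-OV-3 (fell by 0.64, adjusted p = 0.0451 by edgeR). The SK-OV-3 call did not hold under DESeq2, another scaling, no filter, PromethION libraries alone or without PromethION replicate 1 or either MinION library (adjusted p from 0.0102 to 0.184 over all alternatives). Of the copies of ANXA2, ANXA2P2 reached 2.97 CPM, and ANXA2P1 and ANXA2P3 had no count.

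For members with a range of at least 8-fold between lines on the scale of CPM + 1, the genes with the most similar pattern were sought among 8813 genes by Pearson correlation over the 7 lines. ANXA1 (9.28-fold) and ANXA9 (27.7-fold) met this rule, while ANXA6, at 7.91-fold on that scale and 8.53-fold in plain CPM, did not. For ANXA1 these were LEMD2 (r = 0.98) and FPGS (r = 0.98). LEMD2 ran from 12.4 CPM in IGROV-1 to 47.1 CPM in SK-OV-3, and FPGS from 13.7 to 61.8 CPM in the same lines. For ANXA9 they were WNT10A (r = 0.99) and DOHH (r = 0.98). WNT10A was at 115 CPM in OVKATE and at 8.10 CPM or less in the other lines, and the correlation with ANXA9 rests mainly on OVKATE. For ANXA1 and ANXA9 alike, these r are the highest among 8813 genes over 7 points. They are high by selection, and no test was made.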

How the data were processed

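Nanopore libraries of 7 established ovarian cancer cell lines were analysed (10 libraries). Per the labels' protocols, RNA was purified with a column kit and libraries were made by ligation. Per the submitters' processing notes, minimap2 2.24-r1122 and GRCh38 were used. The sources used here do not give the quantification tool or the use of strand. The authors deposited estimated counts per transcript, which need not be whole. The TPM values the authors deposited equal these counts scaled by the library total, without division by length, and are called CPM here.

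Estimated counts were summed per gene and rounded for the tests. Genes were tested with edgeR 4.0.16 in R 4.3.3 (quasi-likelihood test, TMM, default expression filter by group, Benjamini-Hochberg adjustment over all genes, two-sided, calls at an adjusted p under 0.05). The instruments were compared on the 4 IGROV-1 libraries and the lines in a fit of all 10. Transcript usage was tested with edgeR's diffSpliceDGE and a Simes p per gene. Both tests were tested on simulated data. The IGROV-1 libraries are replicates by their labels. Counts within each instrument's pair differed by more than counting noise (chi-square per degree of freedom 4.04 and 6.27), which says only that neither pair is a library deposited again. The biological coefficient of variation was 11.7%. Intervals for shares (95%, Wilson) and the floor of 3 counts cover counting error only.

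All 28 member transcripts had the same coordinates in GENCODE 29, which gave the lengths. Promoter sequences come from RefSeq. Named were the 10 members, other annexins, a list of partners, and for members with an 8-fold range in CPM + 1 the 2 genes of highest Pearson correlation among genes of at least 10 CPM. The members and lists were chosen with earlier results of these data known. Alternatives were DESeq2 1.42.0, other scalings and filters, a replicate block, other sets of libraries and leaving out each IGROV-1 library.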

Additional observations from a re-analysis of the deposited data

How the results depend on the processing

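Of 542 values of 54 member results recomputed under alternatives, 508 kept their direction and side of the threshold, 20 lost a call, 3 gained one and 11 changed sign, the cause of which was not tested. Of the 7 members present in every library, DESeq2 called 3 in OVTOKO (edgeR 5), against 6.36% of all genes (edgeR 34.1%). Over the 15 line pairs it called 21 of 105 differences of these members (edgeR 58). Over all genes it called 12341 of 311100 differences, or 3.97% (edgeR 64769 of 195450, or 33.1%). Usage calls between instruments ranged from 0 to 1 when 1 library was left out. No signs changed among called values. The ANXA1 instrument difference ranged from -0.27 to 0.62 and that of ANXA5 from -0.084 to 0.14 when 1 library was left out. On the same terms the ANXA6 change ranged from -0.18 to 0.051 in SK-OV-3 and from -0.11 to 0.13 in COV504, and the ANXA3 change in COV362 from -0.048 to 0.0037. That ANXA3 change was 0.019 under both RLE scaling and DESeq2, 0.020 with a 10 CPM filter and 0.0019 with PromethION libraries alone.

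Outside mitochondrial genes the summed annexin level was 4788 CPM in OVMANA, 7580.1 in OVKATE, 3063 in OVTOKO, 6868 in SK-OV-3, 3173 in COV362, 7866 in COV504 and 1906 in IGROV-1 PromethION (mean). By TMM it was 5034, 6144, 3202, 5800.3, 3243 and 7391 CPM for the first 6. IGROV-1 was lowest under each scaling.

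Replicate numbers were shared between the IGROV-1 instruments. Deviations of same-numbered libraries correlated (r = 0.49 over 7894 genes), over only 2 pairs, and the labels do not say what a number stands for. The line comparisons treat these libraries as independent and were not run with a replicate block, so the effect on their p-values was not tested. With a replicate block, 2 members were called between instruments (0 without), and the ANXA2 usage call was kept. The shares of all genes called with the block are not given here, so these calls have no background to be set against.

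ANXA8 and ANXA10 did not pass edgeR's filter on low counts, and with 2 residual degrees of freedom all line comparisons rest on the spread of IGROV-1.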

Other observations

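The IGROV-1 replicates differed in ANXA1 more than in most genes of at least 50 CPM. Replicate 2 had 1.85 times the ANXA1 level of replicate 1 on the PromethION and 1.64 times on the MinION. Over 2594 genes of at least 50 CPM, 95% of such ratios lay between 0.705 and 1.38 on the PromethION and between 0.726 and 1.47 on the MinION. ANXA2 had ratios of 1.08 and 1.09, and ANXA4 of 0.806 on both instruments. AHNAK, a giant scaffold protein that binds the complex of ANXA2 and S100A10, had ratios of 2.00 and 2.37, with 53.0 and 106 CPM on the PromethION and 45.8 and 108 CPM on the MinION. KRT18, a keratin, had ratios of 3.96 and 4.43, and COL1A1, a collagen of fibroblasts, of 3.55 (6.41 and 22.8 CPM) and 4.66 (4.91 and 22.9 CPM). The part of these markers in the ANXA1 levels was not tested. ANXA1, AHNAK, KRT18 and COL1A1 were picked for these ratios, and no test was made. The labels do not say whether a replicate number means the same culture on both instruments.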
